A study of Mus musculus with 6 samples.

Results

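The collagen chain family was read as the genes whose single symbol in the platform annotation is Col, a type number, the letter a and a chain number. On the arrays, 46 probe sets matched, for 44 of the 19938 genes tested. Col6a5 and Col6a6 had 2 probe sets each, and the brighter one was used. RNA levels were compared between 3 mouse osteosarcoma lines and 3 cultures of differentiated osteoblasts, with 1 Affymetrix Mouse Gene ST array for each sample, as log2 expression from RMA (robust multi-array averaging). Having 3 arrays in each group bounds how precise any value can be. The lines OS_493H, OS_494H and OS_716H were each derived from 1 primary bone tumour of a C57Bl6 mouse with the genotype Osx-Cre+, Rb fl/fl and p53 fl/fl, in which the Osterix (Sp7) promoter drives Cre in cells of the osteoblast lineage. The tumours were from the hip of a female aged 188, the hip of a male aged 190 and the tibia of a female aged 226, with no unit for the age. The osteoblasts were KUSA4b10, a C57Bl6 bone marrow stromal line with neither floxed allele nor Cre in its labels, kept for 21 days after confluence in medium with 50 ug/ml ascorbate. The 3 cultures are 1 cell line, and their titles carry the tags Ex1, Ex2 and Ex3 without saying whether these were separate experiments, so p-values measure only the spread between these samples, which may in part be technical. The treatment text names KUSA4b10 cells alone, so tumour origin and growth or differentiation state cannot be told apart.

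Rb1, a gene targeted in the mice, was 10.68, 10.66 and 10.66 in the cultures and 9.26, 9.70 and 9.87 in the lines, lower by 1.05 ± 0.15 (SE) log2 units. Its probes lie along the whole transcript, so this level is no measure of the deletion. The array labelled OS_716H (female) had the Y-linked gene Eif2s3y at 10.11, close to 9.96 in the male line OS_494H and far above 4.08 in OS_493H, and Xist at 5.50, against 12.62 in OS_493H, so it went against its labelled sex. Culture 2 stood apart from the other two cultures, with 150 and 186 genes differing from them by over 1 log2 unit, against 3 genes between cultures 1 and 3. Of 6 measured osteoblast markers, 4 fell and none rose in the lines. Over all genes, 13.2% rose and 11.4% fell at the threshold given below. Bone sialoprotein (Ibsp) averaged 13.23 ± 0.40 in the cultures and 7.07 ± 0.99 in the lines (SD, n = 3 each). All 7 proliferation markers rose, and 9 of 10 adipocyte markers fell. Of 7 smooth muscle and pericyte markers 2 rose, Cnn1 by 4.81 and Tagln by 2.09 log2 units, and Mcam fell by 0.74. That is 42.9% called, against 24.6% of all genes. Their part in the collagen levels was not tested.

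Collagens are proteins whose chains are wound into a triple helix, with glycine repeated along each chain. Fibrillar collagens form the tensile fibrils of bone, skin and tendon, and type I collagen is the main protein of the bone matrix that osteoblasts secrete. FACIT collagens (fibril-associated collagens with interrupted triple helices) decorate the fibrils, type IV builds the sheets of basement membranes, types VIII and X form open networks, type VI forms beaded filaments, and the transmembrane collagens sit in the cell surface. Ascorbate is a cofactor of the enzymes that hydroxylate proline and lysine in the chains, which the helix needs to be stable.

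The collagen genes did not move as one family. Of 44, 3 rose (Col3a1, Col4a5 and Col16a1) and 7 fell in the osteosarcoma lines (Col10a1, Col4a1, Col4a2, Col15a1, Col18a1, Col5a3 and Col11a2), by limma at an adjusted p (Benjamini-Hochberg, all genes) under 0.05. The share past the threshold, 22.7%, lay near that of all genes, 24.6%. By direction, 6.82% of the collagen genes rose, against 13.2% of all genes, and 15.9% fell, against 11.4%. The median log2 difference was -0.05 over the family and -0.02 over all genes. A call with at least a 2-fold change was seen for 5 collagen genes, 11.4% against 6.88% of all genes, of which 1 rose and 4 fell (4.07% and 2.81% of all genes). The groups did not overlap for 15 collagen genes, 34.1% against 41.5% of all genes. The lines lay wholly below the cultures for 12 collagen genes, 27.3% against 21% of all genes, and wholly above for 3, 6.82% against 20.5%. For 8 of the 44 genes both group means were below 7.53, the median of all values on the arrays, and RMA gives no call of detection. When only the 11632 genes with a group mean above that median were tested, 40.6% of them passed, against 10 of 36 collagen genes. The family's share thus lay near that of all genes, but not near that of genes this bright.

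The counts varied with the arrays used. On leaving out each array in turn, 6 or 7 collagen genes fell, and the number that rose was 0 without culture 1, 5 without culture 2, 1 without culture 3, 1 without OS_493H, 4 without OS_494H and 1 without OS_716H. The share of all genes called moved as well, to 13.8%, 19.5% and 14.8% without cultures 1, 2 and 3, and to 19.4%, 25.3% and 24.7% without OS_493H, OS_494H and OS_716H. When each group was given its own spread in place of 1 moderated spread for both, none of the 44 passed the adjusted threshold (11 had an unadjusted p under 0.05), and 412 of all genes passed.

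**Figure D1:**
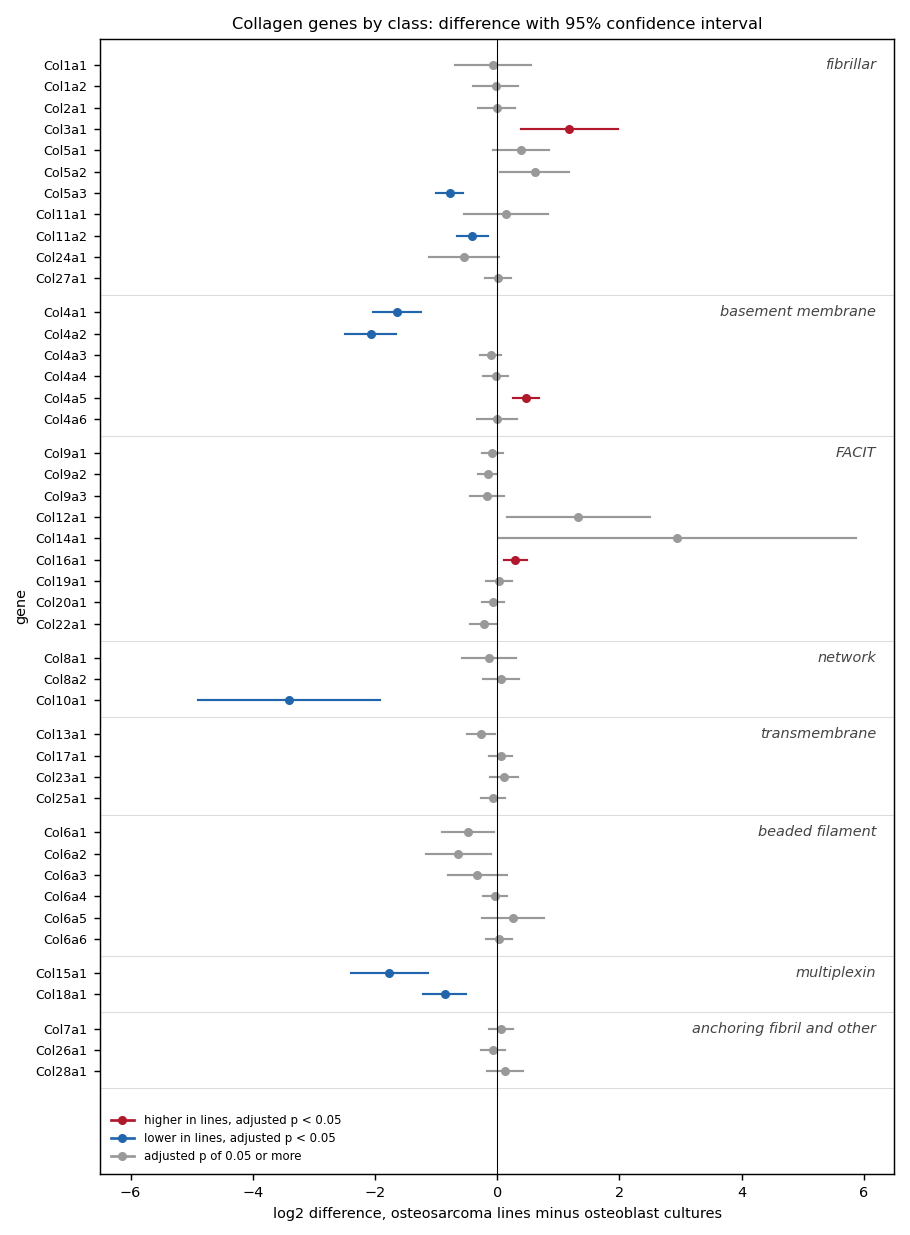
Log2 difference (osteosarcoma lines minus osteoblast cultures) of each of the 44 collagen genes by class, with the limma 95% confidence interval as a bar. Col10a1, at -3.40, lies farthest to the left, and Col14a1, at 2.95, farthest to the right with the widest interval (0.03 to 5.86).

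The starts of 4 of these genes are shown because they stand for the 3 kinds of outcome: Col3a1 rose, Col10a1 and Col18a1 fell, and Col1a2 did not pass the test. Each sequence is the 250 bases before a RefSeq start in GRCm38.p6, 5′ to 3′ on the gene's strand. Capitals mark motifs found on either strand. The search covered TATAA for the box bound by the basal transcription machinery, CCAAT for the box bound by nuclear factor Y, GGGCGG for the GC box of the factor Sp1, and TGTGGT for sites of Runx factors.
Col3a1 (chr1:45311288-45311537, plus strand): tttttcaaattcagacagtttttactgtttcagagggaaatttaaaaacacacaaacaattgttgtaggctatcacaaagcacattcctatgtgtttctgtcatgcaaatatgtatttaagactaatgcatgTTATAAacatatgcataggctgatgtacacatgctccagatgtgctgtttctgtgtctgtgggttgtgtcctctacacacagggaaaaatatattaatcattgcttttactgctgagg
Col10a1 (chr10:34389731-34389980, plus strand): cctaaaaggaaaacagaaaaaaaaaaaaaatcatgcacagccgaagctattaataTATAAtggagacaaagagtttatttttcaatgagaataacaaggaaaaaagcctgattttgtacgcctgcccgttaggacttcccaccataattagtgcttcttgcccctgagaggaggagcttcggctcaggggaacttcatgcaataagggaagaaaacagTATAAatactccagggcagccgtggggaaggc
Col18a1 (chr10:77166531-77166780, minus strand): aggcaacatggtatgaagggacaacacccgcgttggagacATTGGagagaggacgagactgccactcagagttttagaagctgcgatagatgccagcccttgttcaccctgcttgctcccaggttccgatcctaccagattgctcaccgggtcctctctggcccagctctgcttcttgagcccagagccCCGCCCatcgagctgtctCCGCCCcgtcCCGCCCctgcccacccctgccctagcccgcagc
Col1a2 (chr6:4505368-4505617, plus strand): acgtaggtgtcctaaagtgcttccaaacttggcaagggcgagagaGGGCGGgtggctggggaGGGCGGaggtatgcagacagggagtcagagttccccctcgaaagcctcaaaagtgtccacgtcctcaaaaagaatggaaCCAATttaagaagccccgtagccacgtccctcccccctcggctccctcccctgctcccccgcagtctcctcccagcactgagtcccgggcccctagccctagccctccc
The windows before Col3a1 and Col10a1 were poor in G and C (35.2% and 41.6%) and held the TATA letters, which 22.8% of all 32851 promoter windows of this length hold. In Col10a1 one match began 32 bases before the start and another 195 bases before it. In Col3a1 matches on the 2 strands overlapped, 117 and 118 bases before the start. The windows before Col18a1 and Col1a2 both held 62% G and C, with 3 and 2 GC boxes (found in 32.7% of all windows) and 1 CCAAT box each (33.8%). None of these 4 windows held TGTGGT (14% of all windows). Col18a1 has a further RefSeq start within the gene, whose window (not shown) held 1 TGTGGT match and none of the other motifs. Over the 35 collagen genes with a window, counting all starts of a gene, 7 held the TATA letters, 13 CCAAT, 21 the GC box and 3 TGTGGT. The Col10a1 window lies within the annotated span of Nt5dc1. A match describes letters, not a bound site.

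Type I collagen, the heterotrimer of bone made of Col1a1 and Col1a2 chains, did not pass the test for either chain. Col1a1 was 13.20, 13.77 and 12.98 in cultures 1, 2 and 3 and 13.39, 12.81 and 13.55 in OS_493H, OS_494H and OS_716H. The groups overlapped, and the difference was -0.07 (95% confidence interval -0.69 to 0.56, limma adjusted p = 0.893). Col1a2 was 13.09, 13.54 and 12.96 in the cultures and 13.17, 13.11 and 13.24 in the lines, a difference of -0.03 (-0.40 to 0.34, adjusted p = 0.925). On the array scale and for these samples, both intervals exclude a 2-fold difference. Both genes lay at 12.81 to 13.77, where the highest value on any array was 14.88. Whether differences were compressed at this brightness was not tested.

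Col3a1, whose product forms homotrimers in the fibrils of distensible tissues, rose. It was 9.94, 10.96 and 9.99 in the cultures and 11.80, 10.98 and 11.65 in the lines. The groups did not overlap, but culture 2 and OS_494H differed by little. The rise was 2.27-fold (1.18 ± 0.33 SE log2 units, limma adjusted p = 0.043). It lost its call without culture 1 (adjusted p = 0.146), culture 3 (0.144), OS_493H (0.124) or OS_716H (0.103), and after quantile normalisation (0.0573).

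Type V collagen starts and limits the width of type I fibrils, and its chains did not go together. Col5a1 was 9.42, 9.87 and 9.28 in the cultures and 9.87, 9.68 and 10.19 in the lines (difference 0.39, adjusted p = 0.206). Col5a2, which lies next to Col3a1 in the genome, was 10.47, 11.29 and 10.48 in the cultures and 11.21, 11.58 and 11.30 in the lines. Its difference of 0.61 did not pass (adjusted p = 0.114), and without culture 2 it did, at 0.88 (adjusted p = 0.00939). Col5a3, the chain found in fewer tissues, fell 1.72-fold, from 8.76 ± 0.04 to 7.99 ± 0.15 (SD, n = 3 each, adjusted p = 0.00211). Every line lay below every culture for Col5a3.

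The other fibrillar genes, those of cartilage type among them, gave differences between -0.55 and 0.14. Col2a1, the main collagen of cartilage, was 8.87, 9.11 and 8.75 in the cultures and 9.02, 8.72 and 8.97 in the lines (difference -0.01, adjusted p = 0.975). Col11a1, of the fibrils of cartilage and also made by bone cells, was 8.62, 9.44 and 8.64 against 8.69, 8.95 and 9.49 (0.14, adjusted p = 0.775). Col11a2, its partner chain, fell 1.33-fold (-0.41 ± 0.11 SE, limma adjusted p = 0.036), with all lines at 8.18 to 8.35 and all cultures at 8.54 to 8.86. That call was kept on leaving out OS_716H and lost on leaving out any other single array (adjusted p up to 0.104). Col24a1 differed by -0.55 (adjusted p = 0.155) and Col27a1 by 0.01. None of 9 chondrocyte markers passed the test, and their mean level was 6.68 to 6.78 in the cultures and 6.84 to 7.14 in the lines.

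Of the 6 basement membrane chains, 2 fell, 1 rose and 3 did not pass (50% called, against 24.6% of all genes). The 3 that did not pass, Col4a3, Col4a4 and Col4a6, had both group means below the median of all values. Col4a1 and Col4a2 together form the type IV heterotrimer found in nearly all basement membranes. Col4a2 was 10.65, 10.45 and 10.70 in the cultures and 8.79, 8.15 and 8.65 in the lines. It fell 4.20-fold (-2.07 ± 0.17 SE, limma adjusted p = 8.48e-04). Col4a1 was 10.13, 9.95 and 10.14 in the cultures and 8.64, 8.07 and 8.60 in the lines, a 3.11-fold fall (-1.64 ± 0.16 SE, adjusted p = 0.0013). For both chains the groups lay over 1 log2 unit apart, OS_494H was the lowest line and culture 2 the lowest culture. Both calls were kept on leaving out each array in turn (adjusted p up to 0.0108).

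The 2 genes are neighbours on opposite strands, and their 300-base windows around the starts share 78 bases. Col4a3 and Col4a4, a neighbouring pair whose chains serve the kidney filter, differed by -0.11 and -0.02, with all arrays between 7.28 and 7.60. In the last such pair Col4a5 rose 1.38-fold, from 7.99 ± 0.09 to 8.46 ± 0.10 (SD, n = 3 each, adjusted p = 0.00974), and Col4a6 differed by -0.01 (adjusted p = 0.969). The Col4a5 call was lost without culture 1 (adjusted p = 0.05). Among the other neighbouring collagen genes, Col6a1 with Col6a2, Col9a1 with Col19a1, and Col6a4, Col6a5 and Col6a6 had no member past the threshold. Col18a1, which fell, lies near Col6a1 and Col6a2 with 2 and 3 protein-coding genes between.

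The multiplexins, collagens of basement membrane zones whose ends include endostatin and related fragments, were both lower. Col15a1 was 10.11, 10.31 and 9.90 in the cultures and 8.96, 8.08 and 7.99 in the lines, a 3.40-fold fall (-1.76 ± 0.27 SE, limma adjusted p = 0.00463). OS_493H kept the most, and lay below every culture. Col18a1, the source of endostatin, was 9.05, 9.04 and 9.10 in the cultures and 8.40, 7.87 and 8.34 in the lines, a 1.82-fold fall (adjusted p = 0.00714). Both calls were kept on leaving out each array in turn (adjusted p up to 0.0353).

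Fat cells lay down a basement membrane of types IV, XV and XVIII, and their markers moved in the same direction. Of 10 adipocyte markers 9 fell and none rose (90% called, against 24.6% of all genes). Their mean level was 10.56 to 11.21 in the cultures and 7.57 to 8.09 in the lines. Adiponectin (Adipoq) averaged 11.88 ± 0.48 in the cultures and 5.93 ± 0.18 in the lines (SD, n = 3 each). Whether the fat cell genes have a part in the falls of Col4a1, Col4a2, Col15a1 and Col18a1 was not tested, and in these bulk samples fewer cells of a type and less RNA per cell cannot be told apart. Endothelial cells also make these collagens. None of 8 endothelial markers passed, and their mean level was 6.49 to 6.54 in the cultures and 6.53 to 6.85 in the lines. Pecam1 and Cdh5 were at 6.54 to 6.82 on all arrays, and 7 of the 8 were below the median of all values in both groups. The other marker, Tek, was 9.05, 6.30 and 7.52 in OS_493H, OS_494H and OS_716H and 6.34 to 6.40 in the cultures. Whether endothelial cells have a part in these collagen levels was not tested.

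**Figure D2:**
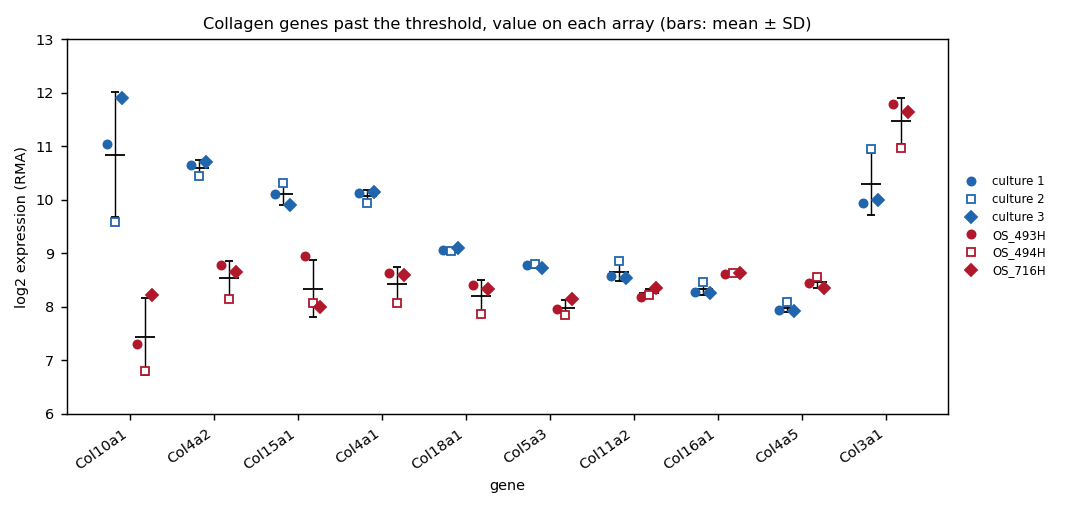
Log2 expression of the 10 collagen genes past the threshold on each array, ordered from the largest fall to the largest rise, with cultures in blue, lines in red and bars for the mean ± SD (n = 3 per group). The groups do not overlap for any of the 10 genes, and Col10a1 spans 9.58 to 11.90 over the cultures.

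Among the network collagens, Col10a1 had the largest fall of the family. Its product forms the hexagonal network of hypertrophic cartilage and is a target of Runx2. It was 11.05, 9.58 and 11.90 in cultures 1, 2 and 3 and 7.31, 6.79 and 8.23 in OS_493H, OS_494H and OS_716H. Every line was below every culture, although the cultures ranged over 2.32 log2 units. The fall was 10.6-fold (-3.40 ± 0.62 SE, limma adjusted p = 0.00946), and the call was kept on leaving out each array in turn (up to 0.0449). Of the 9 chondrocyte markers, 7 were below the median of all values in both groups, among them the cartilage proteoglycan Acan at 6.43 to 6.64 on all arrays. The exceptions were Sox9, at 9.91 to 10.92 on all arrays, and Comp, at 9.26 in OS_716H and 6.95 to 7.55 on the other arrays. Hapln1, one of the 7 by its group means, was 7.83 in OS_494H, above that median. It was 6.41 in OS_493H, 6.21 in OS_716H and 5.83 to 5.94 in the cultures (limma adjusted p = 0.147).

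Type VIII collagen, a network former of vessel walls and the eye, did not share this fall. Col8a1 was at 11.50 to 12.08 in the cultures and 11.41 to 11.85 in the lines (difference -0.13, adjusted p = 0.679). Col8a2 differed by 0.06 (adjusted p = 0.781).

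The FACIT class held the largest gap between lines. Col14a1, whose product binds fibril surfaces of skin and tendon, was 7.40, 7.42 and 7.45 in the cultures. Among the lines OS_493H had 11.25, OS_494H 7.34 and OS_716H 12.53. OS_494H was thus at the level of the cultures, and the other two lines were far above every culture. The difference of 2.95 ± 1.22 (SE) did not pass (limma adjusted p = 0.136). It passed without OS_494H, at 4.47 (adjusted p = 9.69e-04), a value that rests on 2 lines chosen after their levels were seen. Over all genes, the SD of Col14a1 over the 3 lines ranked 7 of 19938.

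Col12a1, which encodes the FACIT of dense tissue and of bone-forming cells, was 10.55, 12.25 and 10.79 in the cultures and 11.93, 12.61 and 13.04 in the lines. Culture 2 lay above OS_493H, so the groups overlapped, and the difference of 1.33 ± 0.49 (SE) did not pass (adjusted p = 0.101). Without culture 2 it was 1.86 (adjusted p = 0.0159). Col16a1 rose 1.23-fold (0.29 ± 0.08 SE, limma adjusted p = 0.0369), with all lines at 8.61 to 8.64 and all cultures at 8.26 to 8.46. Its call was lost on leaving out culture 1, culture 3 or any 1 line (adjusted p up to 0.14). The type IX genes Col9a1, Col9a2 and Col9a3, partners of Col2a1 in cartilage fibrils, differed by -0.08, -0.16 and -0.16, and Col19a1, Col20a1 and Col22a1 by 0.03, -0.07 and -0.22, none past the threshold.

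Type VI collagen, the beaded filament around cells, was bright in both groups. Col6a1 was 12.31, 12.46 and 12.25 in the cultures and 12.04, 11.46 and 12.09 in the lines. Col6a2 was 11.96, 12.20 and 11.89 in the cultures and 11.58, 10.87 and 11.70 in the lines. All lines were below all cultures for these 2 chains, yet neither difference passed (-0.48, adjusted p = 0.101, and -0.64, adjusted p = 0.0861). Col6a3, the third chain of the trimer, was 11.90, 12.50 and 11.83 in the cultures and 11.50, 11.83 and 11.92 in the lines (-0.33, adjusted p = 0.307). The shorter-range chains Col6a4, Col6a5 and Col6a6 differed by -0.04, 0.26 and 0.03, at levels of 7.26 to 8.28. Col6a5 was 8.09 and 7.90 in OS_493H and OS_716H and 7.26 in OS_494H.

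The transmembrane collagens gave no gene past the threshold. Col13a1, of muscle and nerve junctions, was 8.11 to 8.28 in the cultures and 7.82 to 8.07 in the lines, a difference of -0.26 (adjusted p = 0.0916) with no overlap. Col17a1, the hemidesmosome collagen of skin, differed by 0.05, Col23a1 by 0.11 and Col25a1, which is made in the nervous system, by -0.08. Col7a1, the anchoring fibril of skin, differed by 0.06, Col26a1 by -0.08 and Col28a1 by 0.13. None of 6 epithelial markers passed, and their mean level was 6.90 to 7.03 in the cultures and 6.96 to 7.02 in the lines.

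**Figure D3:**
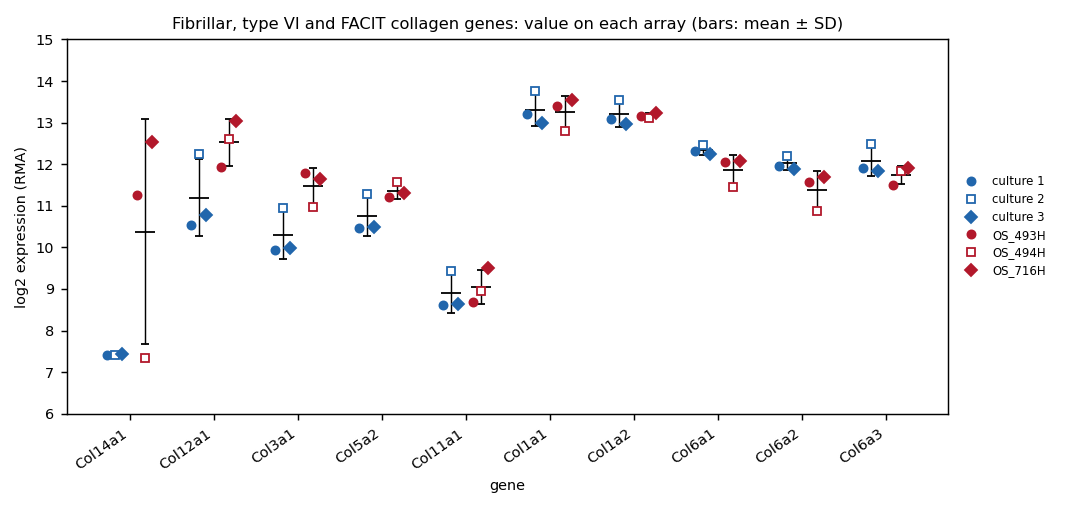
Log2 expression of 10 FACIT, fibrillar and type VI collagen genes on each array, with cultures in blue, lines in red and bars for the mean ± SD (n = 3 per group). OS_494H sits at 7.34 for Col14a1, with the cultures, and culture 2 lies above cultures 1 and 3 for each of the 10 plotted genes but Col14a1, where the cultures lie between 7.40 and 7.45.

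Chains of one type were set against each other within each array, for 8 pairs. Probe sets differ in brightness, so only the change of such a log2 difference between groups was read. Whether weaker signal in the lines altered such a change was not tested. Col4a1, Col4a2 and Col5a3 averaged 10.07, 10.60 and 8.76 in the cultures and 8.44, 8.53 and 7.99 in the lines. The difference Col4a1 minus Col4a2 was -0.53 ± 0.03 in the cultures and -0.09 ± 0.05 in the lines (SD, n = 3 each), higher by 0.43 in the lines, and the groups did not overlap. For Col5a1 minus Col5a3 it was 0.76 ± 0.27 and 1.93 ± 0.11, and for Col6a1 minus Col6a2 0.32 ± 0.05 and 0.48 ± 0.10, both also without overlap. By exact permutation, two-sided, each of these 3 pairs had p = 0.1 (0.267 adjusted over the 8 pairs). No smaller p can come from 3 samples against 3, so none could pass. For Col1a1 minus Col1a2 the change between groups was -0.04 (exact p = 1). For the other 4 pairs it lay between -0.23 and 0.55, with exact p of 0.2 to 0.7.

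Culture 2 differed from its companions in much of the family. It was the highest of the 3 cultures for 34 of 44 collagen genes (77.3%, against 37.5% of all genes), and for all 11 fibrillar genes. For 3 collagen genes, Col3a1, Col12a1 and Col10a1, cultures 1 and 2 differed by over 1 log2 unit, and for none did cultures 1 and 3. Culture 2 was the lowest culture for 6 genes, among them Col10a1, Col4a1 and Col4a2. Col18a1 was nearly level, at 9.05, 9.04 and 9.10 in cultures 1, 2 and 3, and Col15a1 was highest in culture 2, at 10.31 against 10.11 and 9.90. Proliferation markers were also highest in culture 2, for 7 of 7, with Mki67 at 10.34 against 9.01 and 8.99, and 8 of 10 adipocyte markers were lowest there. Their part in the collagen levels was not tested.

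Among the lines, OS_494H was the lowest for 24 of 44 collagen genes (54.5%, against 29.8% of all genes) and OS_716H the highest for 29 (65.9%, against 38.4%). Without OS_716H, the array that went against its labelled sex, 7 collagen genes fell and 1 rose. The collagen genes with the largest SD over the lines were Col14a1 (2.71), Col10a1 (0.73) and Col12a1 (0.56), and over the cultures Col10a1 (1.17), Col12a1 (0.92) and Col3a1 (0.57). The median SD of the family was 0.15 over the lines and 0.12 over the cultures, against 0.13 and 0.09 for all genes.

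Genes that process collagen moved in both directions. Of 50 measured genes for modification, export, maturation and binding of collagen, 13 rose and 7 fell, 40% against 24.6% of all genes. Only 4 of the 50 had both group means below the median of all values. When only the 11632 genes with a group mean above that median were tested, 40.6% of them passed, and 21 pathway genes did. The lists were read beside these shares and not tested as sets. In the first list, of 17 genes for chain modification and folding, 1 rose, 2 fell and 14 did not pass (17.6% called). P4ha3, a catalytic subunit of prolyl 4-hydroxylase, was 9.01, 10.36 and 9.03 in the cultures and 11.56, 10.93 and 11.54 in the lines, a 3.68-fold rise (adjusted p = 0.0146). P3h2, a prolyl 3-hydroxylase that acts on type IV chains, was 10.34, 10.44 and 10.61 in the cultures and 9.30, 9.04 and 9.93 in the lines, a 2.05-fold fall (adjusted p = 0.0173).

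Both calls depended on the arrays used, as did that of Serpinh1. The call of P4ha3 was lost without culture 1, culture 3 or OS_493H (adjusted p up to 0.0599), and that of P3h2 without any 1 culture or OS_493H (up to 0.071). Serpinh1, the collagen chaperone HSP47, fell 1.35-fold (-0.43 ± 0.11 SE, limma adjusted p = 0.0349). Its call was lost after median centring (0.0657) and without culture 2, culture 3, OS_493H or OS_494H (up to 0.121). P4ha1, the main catalytic subunit, differed by 0.14 (adjusted p = 0.547), and Plod2, which hydroxylates lysine in the ends of the chains, by 0.04 (adjusted p = 0.889).

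Of 11 genes listed under export from the endoplasmic reticulum, 5 rose, 2 fell and 4 did not pass. The share called was 63.6%, against 24.6% of all genes and 40.6% when only the brighter genes were tested. Sec24d and Sec23a, coat subunits of the vesicles that carry procollagen, rose 1.74- and 1.69-fold (adjusted p = 0.00552 and 0.01). Ctage5, which with Mia3 loads collagen into those vesicles, fell 1.62-fold, from 11.11 ± 0.15 to 10.41 ± 0.06 (SD, n = 3 each, adjusted p = 0.00355), and Mia3 fell 1.36-fold (0.0317). Tango2, a gene of this list with no settled role in collagen export, rose 1.79-fold (adjusted p = 0.00136). The coat subunit Sec31a also rose, 1.27-fold (adjusted p = 0.0493), and Tram2 1.24-fold (0.0395). Without culture 1, culture 3 or OS_716H, 4 of the 7 export calls were left: Tango2, Sec24d, Sec23a and Ctage5 kept theirs on leaving out each array in turn, and Mia3, Sec31a and Tram2 did not (adjusted p up to 0.171).

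Of 12 genes for propeptide cleavage and cross-linking, 6 rose, 1 fell and 5 did not pass. The share called was 58.3%, against 24.6% of all genes and 40.6% when only the brighter genes were tested. Pcolce2, an enhancer of procollagen C-proteinase, was 7.28, 7.32 and 6.44 in the cultures and 10.05, 10.54 and 8.74 in the lines, a 6.79-fold rise (adjusted p = 0.00767). Tll1, a protease related to Bmp1, rose 3.73-fold (adjusted p = 0.0129), a call lost without culture 1 (0.0541). Bmp1 itself, the main procollagen C-proteinase, differed by 0.24 (adjusted p = 0.616). The cross-linking enzymes Lox and Loxl3 rose 2.37- and 2.64-fold, and Loxl4 fell 3.08-fold (adjusted p = 0.00362, 3.36e-04 and 0.00371). Lox was 12.47, 12.90 and 12.37 in the cultures and 14.04, 13.59 and 13.85 in the lines, with a gap between the groups.

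Of 10 collagen receptors, 1 rose, 2 fell and 7 did not pass (30% called, against 24.6% of all genes). Adgrg1, the adhesion receptor GPR56 that binds type III collagen, was 7.43, 7.60 and 7.41 in the cultures and 9.75, 9.03 and 9.32 in the lines, a 3.69-fold rise (adjusted p = 0.00118). Itga10, an integrin chain of cartilage cells that binds collagen, was 9.34, 10.13 and 9.20 in the cultures and 7.25, 8.09 and 7.23 in the lines, a 4.09-fold fall (adjusted p = 0.00563). Ddr2, a receptor kinase for fibrillar collagen, fell 1.38-fold (adjusted p = 0.00478). These 3 calls were kept on leaving out each array in turn (adjusted p up to 0.0304). Itgb1, the shared beta chain of the collagen-binding integrins, differed by 0.06 (adjusted p = 0.607).

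**Figure D4:**
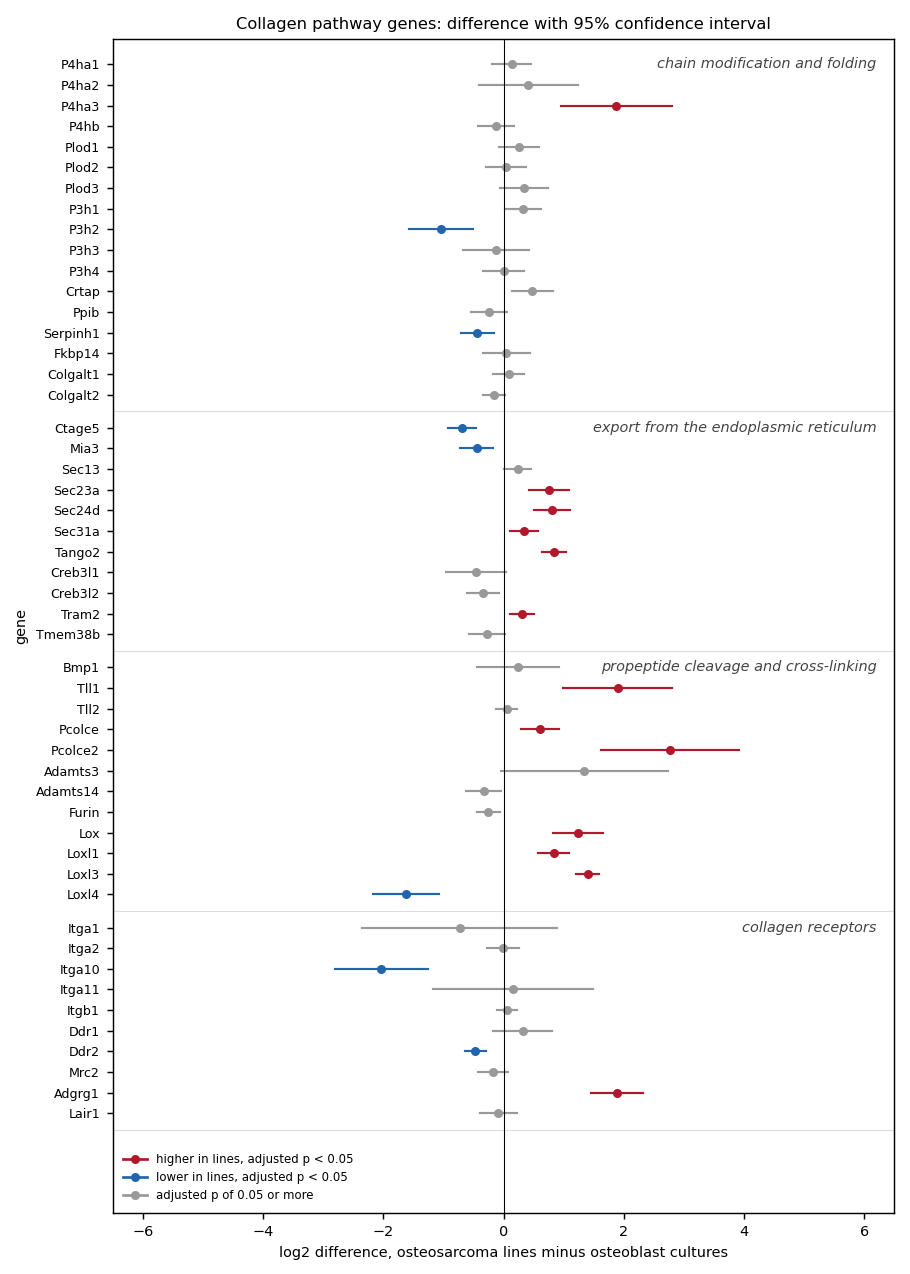
Log2 difference (osteosarcoma lines minus osteoblast cultures) of the 50 collagen pathway genes by list, with the limma 95% confidence interval as a bar. Pcolce2, at 2.76, lies farthest to the right and Itga10, at -2.03, farthest to the left.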

How the data were processed

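Total RNA from 6 mouse samples was hybridised to 1-colour arrays. The deposited values are log2 expression per probe set and array, from RMA with annotation build mm9 (both named in the submitters' processing notes); its software is not given in the sources used here. Background is subtracted, array distributions are equalised and probes are summarised in RMA, which compresses large differences. The 35556 probe sets lay between 3.04 and 14.88. Of them, 21789 had 1 gene symbol, 1621 several and 12146 were unlisted in the platform annotation. The brightest probe set over all arrays was kept for each of 19938 genes. No scan dates were used here, so no batch was tested.

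Groups came from the sample titles. limma 3.58.1 in R 4.3.3 (lmFit, eBayes, two-sided) compared them over all genes, with Benjamini-Hochberg adjustment, and a gene was called under 0.05. Differences are lines minus cultures, and folds are powers of 2. On simulated data of 19938 genes, the fit recovered 66% of 100 genes changed 2-fold and 93% of 100 changed 4-fold. Of its 166 calls, 7 were false. Only 200 genes were changed in that simulation, whereas 4896 were called in the real data. The simulated false calls are thus no estimate of the false calls among the collagen and pathway genes. Members, classes, lists and tests were chosen with earlier results of these data known. Any collagen gene could be named. Values on each array were due for called genes differing by at least 1 log2 unit, for the main type I to VI and X chains and for the 3 most variable genes in each group. From each pathway list up to 4 called genes with the largest difference were taken, with Serpinh1, P4ha1, Plod2 and Lox. Values on each array for the other collagen genes, and the pathway genes Bmp1, Mia3, Sec31a, Tram2, Itgb1, Itga1, Itga11 and Adamts3, were added after their values were seen. Mia2 and Ctage5 were counted once, as Ctage5. Promoters come from RefSeq (GRCm38.p6), which held a window for 35 of the 44 genes. Neighbours were read from the RefSeq gene table of that assembly. Alternatives changed the scaling (quantile, median centring), the spread (intensity trend, robust, unequal between groups, array weights), the features (brighter genes, averaged probe sets, all probe sets), the threshold, or left out each array. The unequal spreads were handled by a Welch t-test on each gene, without limma.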

Additional observations from a re-analysis of the deposited data

How the results depend on the processing

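The 10 collagen calls (3 higher, 7 lower) and the 20 pathway calls depended on the estimate of spread. With unequal spreads for the groups, a Welch t-test on each gene, without moderation, gave 0 collagen calls, 0 higher and 0 lower, and 3 pathway calls. By that test 11 of 44 had an unadjusted p under 0.05. The share of all genes called was then 2.07%, against 24.6% at first. Array weights gave 5 higher collagen calls (31.1% of all genes called). An adjusted p under 0.01 left 1 higher collagen call and 11 pathway calls (12.4% of all genes), and a 2-fold limit left 5 collagen calls, 1 higher and 4 lower, and 9 pathway calls (6.88% of all genes). On leaving out each array, collagen calls ran from 6 to 11, higher calls from 0 to 5, and pathway calls from 13 to 24. Of the 10 called genes, 6 (Col10a1, Col4a1, Col4a2, Col15a1, Col18a1 and Col5a3) kept their call at the same threshold under all alternatives but unequal spreads.

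Several differences near 0 turned their sign, none of them past the threshold in any setting. Under quantile normalisation the log2 difference was 0.0059 for Col2a1, 0.0497 for Col4a4, 0.063 for Col4a6, 0.0253 for Col6a4 and -0.0076 for Plod2. Under median centring it was 0.0376 for Col1a2, 0.0572 for Col2a1, 0.043 for Col4a4, 0.055 for Col4a6 and 0.0244 for Col6a4. With array weights it was 0.097 for Col1a1, 0.0588 for Col1a2, 0.082 for Col2a1 and 0.0077 for Col6a4. On leaving out each array, the difference ran from -0.2339 to 0.16 for Col1a1, -0.1466 to 0.1463 for Col1a2, -0.0848 to 0.0913 for Col2a1, -0.0807 to 0.4167 for Col11a1, -0.0572 to 0.0759 for Col27a1, -0.0935 to 0.0331 for Col4a4, -0.1501 to 0.0988 for Col4a6, -0.0371 to 0.0841 for Col19a1, -0.2647 to 0.0472 for Col8a1, -0.0256 to 0.1462 for Col8a2, -0.0051 to 0.086 for Col17a1, -0.0901 to 0.0074 for Col6a4, -0.0245 to 0.0857 for Col6a6, -0.0942 to 0.1832 for Plod2 and -0.0459 to 0.505 for Bmp1. For the chain differences it ran from -0.1568 to 0.1515 for Col1a1 minus Col1a2 and from -0.3645 to 0.0888 for Col6a1 minus Col6a3. The cause of these shifts was not tested. For the 8 collagen genes below the median signal in both groups, RMA does not tell whether a transcript was detected.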

Other observations

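Some further genes were lowest in OS_494H among the lines. The collagen-binding integrin chain Itga1 was 6.85 in OS_494H, 8.69 in OS_493H and 9.77 in OS_716H, against 8.85 to 9.46 in the cultures. A further, dimmer probe set of Col6a5 was 7.92, 6.44 and 7.50 in OS_493H, OS_494H and OS_716H and 6.22 to 6.46 in the cultures (difference 0.95, limma adjusted p = 0.116 over all probe sets). The angiopoietin receptor gene Tek, on the endothelial list, was 9.05, 6.30 and 7.52 in the same lines and 6.34 to 6.40 in the cultures. OS_494H was also the lowest line for Col14a1. These genes were singled out after their values were seen, and neither Itga1 nor Tek passed the test between groups (limma adjusted p = 0.512 and 0.21).

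Among the genes for which OS_716H was the highest array, 3 are given here, also singled out after their values were seen. The procollagen protease Adamts3 was 10.65 there, against 8.89 and 8.16 in OS_493H and OS_494H and 7.85 to 7.95 in the cultures. The integrin chain Itga11, a receptor for type I collagen, was 12.02, against 9.67 and 10.51 in those lines and 10.36 to 10.93 in the cultures. Cartilage oligomeric matrix protein (Comp), which binds collagen fibrils, was 9.26, against 7.55 and 6.95 in those lines and 7.04 to 7.08 in the cultures. None of these 3 genes passed the test between groups.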
